A study of Mus musculus with 10 samples.

Results

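Ret, its co-receptors Gfra1, Gfra2 and Gfra3, and the ligands Gdnf, Nrtn and Artn were followed in the uterus of mice exposed to bisphenol A before birth and given estradiol as adults. The members are these 7 genes, and every array probe that the platform annotation assigns to one of them was taken, which gave 14 of 45281 probes and 7 of 19057 named genes. The family was chosen because Ret had one of the largest increases after estradiol in earlier results of these same arrays. Ret's values are therefore a description in each comparison that uses those arrays. A test is given for Ret only in the response of bisphenol A-exposed offspring. The change in that response uses none of them, but the spread behind its test is fitted on all 10 arrays. A probe counted as measured when its detection p-value was under 0.05 on 2 or more of the 10 arrays, and 9 member probes of 5 genes met this, among 23942 such probes on the array.

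All animals were female CD-1 offspring, an outbred stock, ovariectomised at 6 weeks to remove ovarian estrogen and examined at 8 weeks. Their dams were dosed on gestation days 9 to 21 with DMSO or with 5 mg/kg daily of bisphenol A (BPA), a building block of plastics with weak estrogenic activity. At 8 weeks the offspring were injected with 300 ng of estradiol (E2), the main ovarian estrogen, or with DMSO, and uteri were collected 6 h later. Uterine RNA pooled by litter was hybridised to Illumina bead arrays. The vehicle group (DMSO in utero, DMSO injected) and the E2 group (DMSO in utero, E2 injected) had 2 arrays each, 1 from each of 2 litters. The BPA group (BPA in utero, DMSO injected) and the BPA plus E2 group (BPA in utero, E2 injected) had 3 arrays each, 1 from each of 3 litters. Replicate numbers are litter numbers, so arrays of the same number and the same exposure are littermates.

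RET is a receptor tyrosine kinase that is activated when a ligand of the GDNF family binds a GFRA co-receptor held on the cell surface by a lipid anchor. GDNF pairs mainly with GFRA1, neurturin (Nrtn) with GFRA2 and artemin (Artn) with GFRA3. The pathway is best known for building the ureteric bud of the kidney and the enteric and autonomic nervous systems, and sympathetic and sensory fibres, which the uterus also receives, are among the neurons it supports.

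The arrays were alike in overall signal, with a median raw probe signal of 122 to 132 and 43.6% to 46.6% of probes detected. All 4 arrays of DMSO-exposed offspring lay on slide 1 and all 6 of BPA-exposed offspring on slide 2. Each E2 response is thus a comparison within 1 slide. Slide and exposure cannot be told apart in the BPA effects, nor in the difference between the E2 responses. In whole uterus, fewer cells of a type and less RNA per cell cannot be told apart either.

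Detection divided the members by role. Ret had 2 of 3 probes measured, the ligands had Gdnf with 1 of 2, Nrtn with its only probe and Artn with all 4, and of the co-receptors only Gfra1 passed, with its single probe. The Gfra2 probe was detected on 0 of 10 arrays, the 2 Gfra3 probes on 0 and 1, and the second Gdnf probe on 0. Just inside the limit were Artn probe 4, detected on 2 arrays of the BPA plus E2 group, and Gfra1, detected on 3 arrays, 1 in the BPA group and 2 in the BPA plus E2 group. Just outside it were Ret probe 3, detected only on replicate 2 of the E2 group, and Gfra3 probe 1, detected on 1 array of the BPA group. Without the detection filter none of the 5 dim probes passed the test in any of the 5 comparisons. The platform assigns Ret probes 1 and 2 to one RefSeq transcript and the dim Ret probe 3 to the other, while all 4 Artn probes are assigned to the same transcript.

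**Figure D1:**
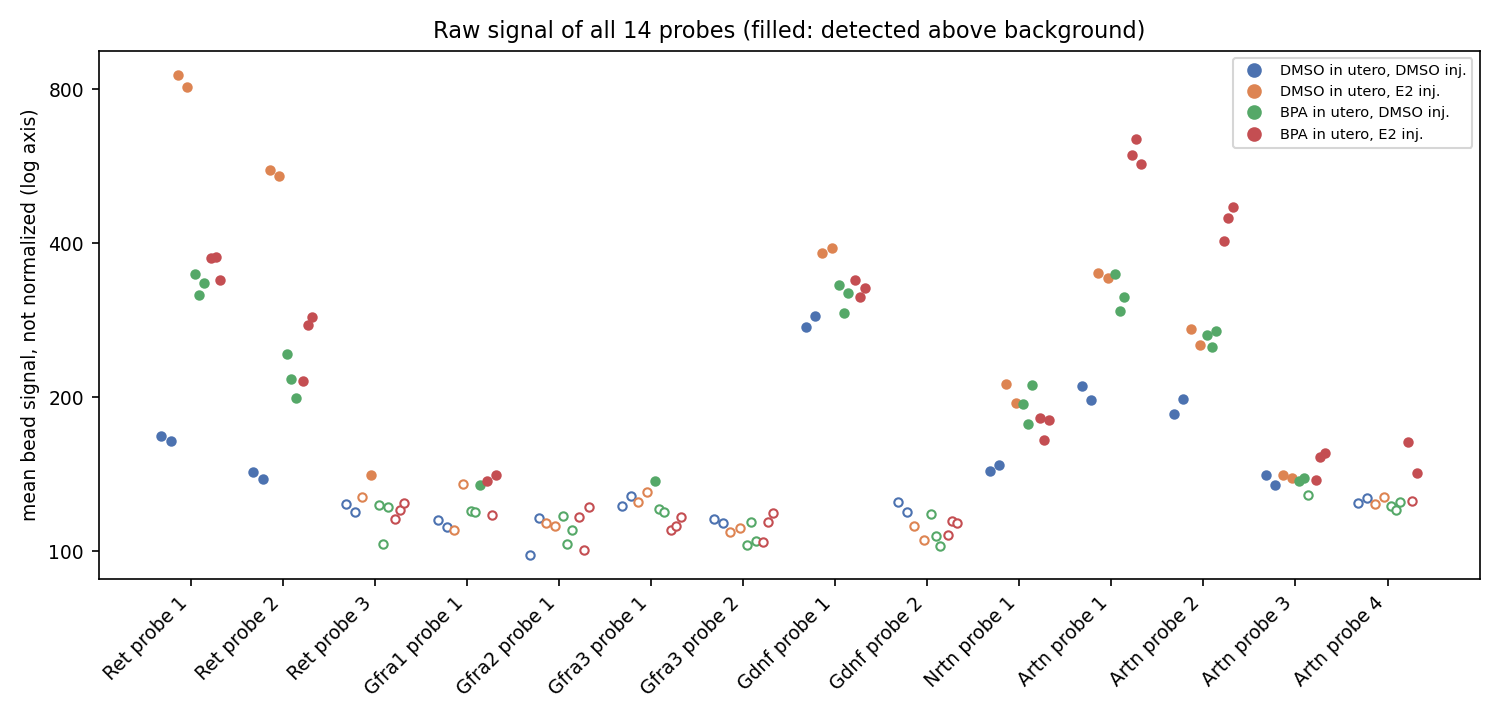
Mean bead signal before normalization (log axis) of all 14 member probes on the 10 arrays, coloured by group, with filled points for a detection p-value under 0.05 and open points otherwise. Ret probes 1 and 2 are highest in the 2 E2 arrays, Artn probes 1 and 2 are highest in the 3 BPA plus E2 arrays, and the probes of Gfra2, Gfra3, Gdnf probe 2 and Ret probe 3 lie near background.

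Ret was highest in the E2 group, lowest in the vehicle group and in between in both BPA-exposed groups. The raw signal of Ret probe 1 was 168 and 164 in the vehicle group, 853 and 807 in the E2 group, 349, 317 and 334 in the BPA group, and 374, 376 and 339 in the BPA plus E2 group. After background correction and normalization, its log2 intensity was 6.22 and 6.10 in the vehicle group and 9.58 and 9.44 in the E2 group. It was 7.90, 7.91 and 7.79 in the BPA group and 8.05, 8.02 and 7.83 in the BPA plus E2 group. Both E2 arrays were above all others and both vehicle arrays below all others, while the BPA and BPA plus E2 arrays overlapped between those extremes. The group means were 6.16 ± 0.09 (SD, n = 2), 9.51 ± 0.10 (n = 2), 7.87 ± 0.06 (n = 3) and 7.97 ± 0.12 (n = 3), in the same order of groups.

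Ret probe 2 gave the same order. Its log2 intensity was 5.52 and 5.36 in the vehicle group, 8.87 and 8.76 in the E2 group, 7.12, 7.04 and 6.58 in the BPA group, and 6.84, 7.39 and 7.46 in the BPA plus E2 group. The BPA groups again overlapped each other and neither of the DMSO-exposed groups. Across the 10 arrays the probes correlated at a Pearson r of 0.975, a description over arrays that share groups and slides. The dim Ret probe 3 had group means of 4.73, 5.03, 4.66 and 4.73 in that order.

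In DMSO-exposed offspring Ret was higher in the E2 group by 3.35 ± 0.11 (log2 change ± SE) or 10.2-fold for probe 1, and by 3.38 ± 0.23 or 10.4-fold for probe 2. Among all 23942 measured probes these ranked 3rd and 2nd from the highest change, which is the contrast Ret was chosen on. Within the 2 litters the difference between the E2 and the DMSO uterus was 3.36 and 3.34 for probe 1, and 3.35 and 3.40 for probe 2. In BPA-exposed offspring the E2 response of Ret probe 1 was 0.10 ± 0.09 (95% interval -0.11 to 0.31, limma adjusted p = 0.476). For probe 2 it was 0.32 ± 0.19 (95% interval -0.11 to 0.75, adjusted p = 0.267). With the arrays of BPA-exposed offspring fitted alone, the limma adjusted p-values were 0.481 for probe 1 and 0.323 for probe 2. The 3 litter differences were 0.16, 0.11 and 0.03 for probe 1 and spread from -0.28 through 0.35 to 0.88 for probe 2.

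The Ret response after BPA was lower than after DMSO by 3.25 ± 0.14 on the log2 scale for probe 1 and by 3.06 ± 0.30 for probe 2, counting from the DMSO-exposed response. Without E2, the BPA group stood above the vehicle group by 1.71 ± 0.10 or 3.27-fold for probe 1 and by 1.47 ± 0.21 or 2.78-fold for probe 2. With E2, the BPA plus E2 group stood below the E2 group by 1.54 ± 0.10 or 2.91-fold for probe 1 and by 1.59 ± 0.21 or 3.01-fold for probe 2. No array of one exposure overlapped the other in either pair of groups. All of these values use the vehicle or the E2 arrays on which Ret was chosen, so no test is attached to them. The size, not the order, rested on background correction: without it the E2 response after DMSO was 2.28 for probe 1 and 1.95 for probe 2, and the BPA difference without E2 was 0.96 and 0.63.

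**Figure D2:**
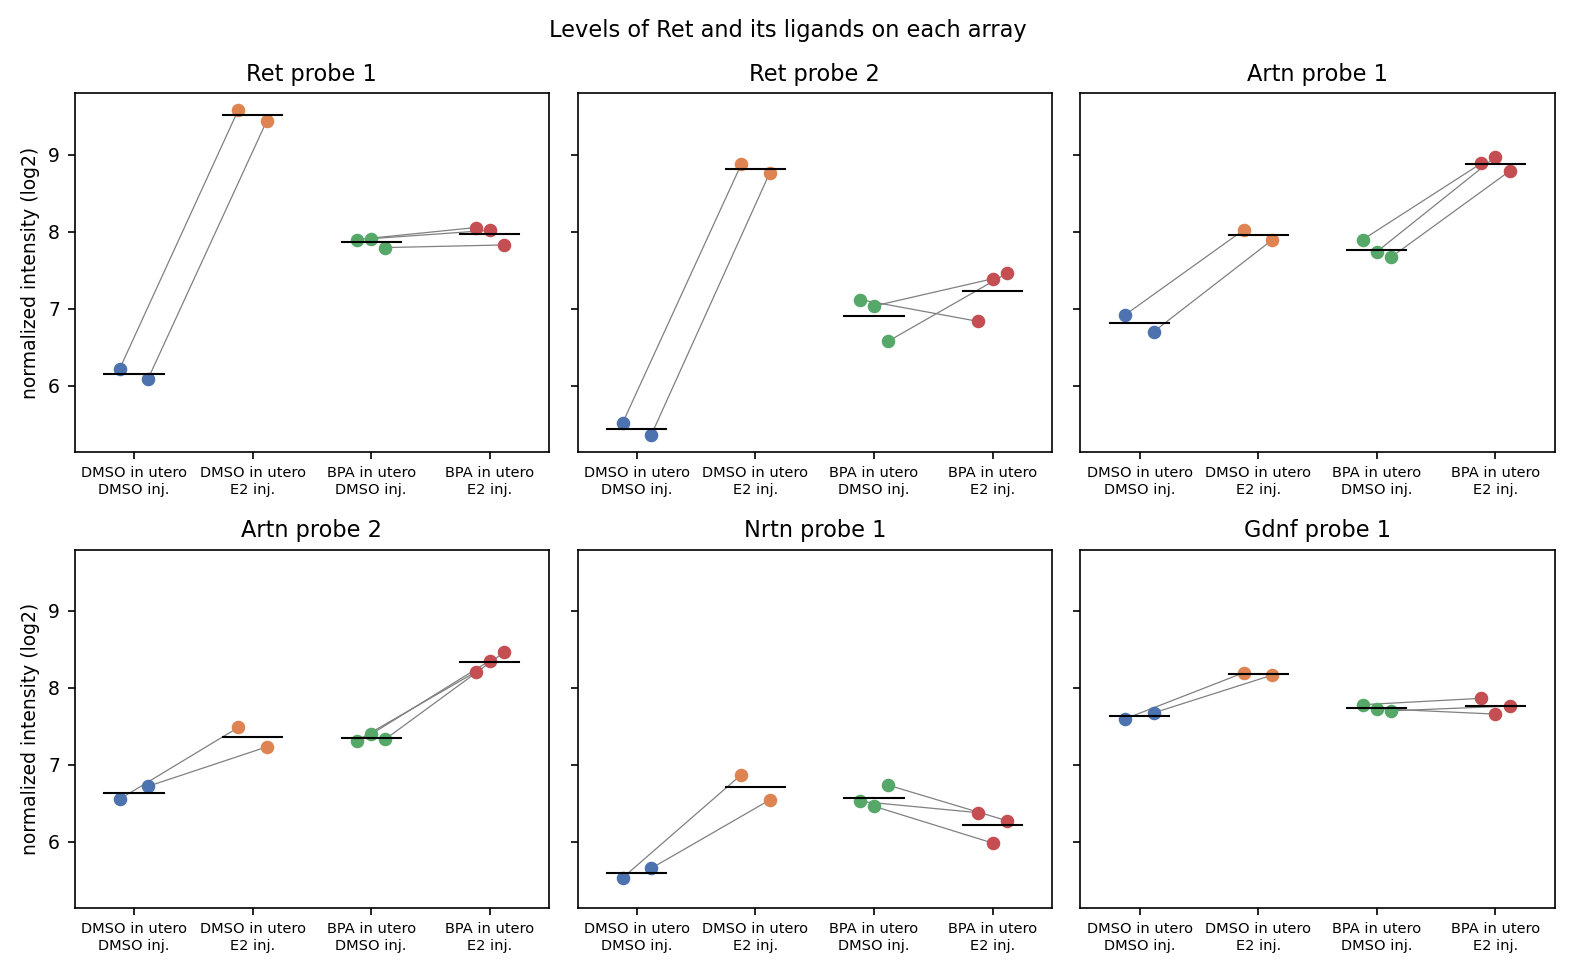
Normalized log2 intensity of 6 member probes on each array, by group; horizontal bars are group means and grey lines join the arrays of the same litter. Ret climbs steeply from DMSO to E2 injection in both DMSO-exposed litters and stays near 7.87 to 7.97 on average for probe 1 in BPA-exposed litters, whereas Artn climbs in all 5 litters.

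Of the co-receptors, only Gfra1, the usual partner of GDNF, could be followed, and it stayed at the edge of detection. Its log2 intensity was 4.56 and 4.49 in the vehicle group, 4.43 and 5.03 in the E2 group, 4.72, 4.79 and 5.17 in the BPA group, and 5.34, 4.65 and 5.36 in the BPA plus E2 group. In the pairs compared the groups overlapped except that the 3 BPA arrays lay above both vehicle arrays, by 0.37 ± 0.25. The other log2 changes of Gfra1 were 0.02 to 0.39, and neither E2 response nor their difference passed the limma test. It was detected on 0 of 4 arrays of DMSO-exposed offspring. It thus passed the filter only through BPA-exposed offspring, where it read higher, so no test is attached to its BPA effects. Gfra2 group values lay between 4.31 and 4.75 on single arrays, and those of the Gfra3 probes between 4.37 and 5.27, without a detection that recurred.

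Artn was the ligand that rose with E2 after both exposures. Artemin is a GDNF family ligand known for its effect on sympathetic and sensory neurons. Artn probe 1 had a log2 intensity of 6.92 and 6.70 in the vehicle group, 8.02 and 7.90 in the E2 group, 7.90, 7.74 and 7.67 in the BPA group, and 8.89, 8.97 and 8.79 in the BPA plus E2 group. The BPA plus E2 arrays were above all others, the vehicle arrays below all others, and the E2 and BPA groups touched at 7.90. E2 raised it by 1.15 ± 0.12 or 2.21-fold after DMSO (limma adjusted p = 0.000442) and by 1.11 ± 0.10 or 2.16-fold after BPA (adjusted p = 8.07e-05). The litter differences were 1.10 and 1.19 after DMSO and 0.99, 1.23 and 1.12 after BPA, so the uterus was higher with E2 in 5 of 5 litters. The responses differed by -0.03 ± 0.16 (95% interval -0.39 to 0.32, adjusted p = 0.923).

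Artn probe 2 read 6.56 and 6.72 in the vehicle group, 7.48 and 7.23 in the E2 group, 7.31, 7.40 and 7.33 in the BPA group, and 8.20, 8.35 and 8.46 in the BPA plus E2 group. Its BPA plus E2 arrays were again the highest and its vehicle arrays the lowest. E2 raised it by 0.72 ± 0.12 after DMSO (limma adjusted p = 0.00478) and by 0.99 ± 0.10 after BPA (adjusted p = 0.00019), a difference of 0.27 ± 0.16 between responses (95% interval -0.09 to 0.63, adjusted p = 0.336). With the 4 arrays of DMSO-exposed offspring fitted alone the first of these missed the threshold, at an adjusted p of 0.0671. Artn was also higher in BPA-exposed offspring at both injections: without E2 by 0.95 ± 0.11 for probe 1 (adjusted p = 0.000378) and 0.71 ± 0.11 for probe 2 (adjusted p = 0.00206), and with E2 by 0.92 ± 0.11 (adjusted p = 0.000473) and 0.98 ± 0.11 (adjusted p = 0.000392). Without background correction the E2 response after DMSO was 0.72 for probe 1 and 0.41 for probe 2, and the BPA effect without E2 was 0.58 and 0.40. Probes 1 and 2 correlated at r = 0.969 over the 10 arrays.

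The other Artn probes did not show this. Artn probe 3 had group means of 5.34 ± 0.16 (n = 2), 5.26 ± 0.14 (n = 2), 5.26 ± 0.27 (n = 3) and 5.61 ± 0.21 (n = 3) in the order vehicle, E2, BPA, BPA plus E2, and passed no test. Artn probe 4 was detected only on BPA plus E2 arrays, 2 of 3, where it read 6.03, 4.86 and 5.40 against 4.79 to 4.85 in the BPA group. It passed the detection filter only through that group, so no test is attached to its values.

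Nrtn, the ligand usually paired with GFRA2, was lowest in the vehicle group and highest on average in the E2 group, as Ret was. Its log2 intensity was 5.53 and 5.66 in the vehicle group, 6.87 and 6.54 in the E2 group, 6.53, 6.46 and 6.74 in the BPA group, and 6.38, 5.99 and 6.27 in the BPA plus E2 group. The vehicle arrays were below all others, the BPA and E2 arrays overlapped, and the BPA plus E2 arrays lay between. E2 raised Nrtn by 1.11 ± 0.16 or 2.16-fold after DMSO (limma adjusted p = 0.00229). After BPA the change was -0.36 ± 0.13 (95% interval -0.67 to -0.06, adjusted p = 0.0830), with litter differences of -0.15, -0.48 and -0.46. The difference between responses, -1.47 ± 0.21, passed the test (adjusted p = 0.00251).

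Without E2, Nrtn was higher in the BPA group than in the vehicle group by 0.98 ± 0.15 or 1.97-fold (limma adjusted p = 0.00168). With E2 it was lower in BPA-exposed offspring by 0.49 ± 0.15 (adjusted p = 0.0400). That last call was lost, with adjusted p-values of 0.0521 to 0.245, when any one of 6 arrays was left out (vehicle replicate 1 or 2, E2 replicate 1, BPA replicate 1, or BPA plus E2 replicate 2 or 3), and without replicate 1 of the E2 group the change was -0.33. Without background correction the Nrtn responses shrank to 0.47 after DMSO and -0.63 for the difference.

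Gdnf, the founding ligand of the family, was raised by E2 after DMSO and not detectably after BPA. Gdnf probe 1 read 7.60 and 7.67 in the vehicle group, 8.20 and 8.16 in the E2 group, 7.78, 7.73 and 7.70 in the BPA group, and 7.86, 7.66 and 7.76 in the BPA plus E2 group. The E2 arrays were above all others and the BPA and BPA plus E2 arrays overlapped. After DMSO, E2 raised Gdnf by 0.54 ± 0.10 or 1.46-fold (limma adjusted p = 0.00528; 0.0683 with these 4 arrays fitted alone). After BPA the change was 0.02 ± 0.08 (95% interval -0.15 to 0.20, adjusted p = 0.856).

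The Gdnf responses differed by -0.52 ± 0.12 (limma adjusted p = 0.0273). With litter as a replicate block the adjusted p of this difference was 0.0788, and leaving out any one of 7 arrays gave 0.0557 to 0.0880 (either vehicle array, either E2 array, BPA replicate 1, or BPA plus E2 replicate 2 or 3). Without E2, Gdnf was 0.10 ± 0.09 above the vehicle group in BPA-exposed offspring (adjusted p = 0.449), and with E2 it was lower than in the E2 group by 0.42 ± 0.09 (adjusted p = 0.00801; 0.0508 without replicate 1 of the E2 group). Over the 10 arrays, Ret probe 1 correlated with Gdnf at r = 0.861, with Nrtn at 0.832 and with Artn probe 1 at 0.545, as a description over arrays that share groups and slides.

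Counted by probe, 6 of the 9 measured probes were higher with E2 after DMSO, beside 8.96% of all measured probes called higher and 9.11% lower; this is the contrast Ret was chosen on, and nothing is read from the count. After BPA, 2 of 9 were higher, both of Artn, beside 13.0% higher and 11.9% lower overall. In the difference of responses 4 of 9 were lower after BPA (Ret probes 1 and 2, Gdnf and Nrtn), beside 6.01% higher and 6.14% lower. In the BPA effect without E2, 5 of 9 were higher (Ret probes 1 and 2, Nrtn and Artn probes 1 and 2), beside 14.2% higher and 12.7% lower. In the BPA effect with E2, 2 of 9 were higher (Artn probes 1 and 2) and 4 lower (Ret probes 1 and 2, Gdnf and Nrtn), beside 13.7% higher and 12.8% lower. The Ret probes in these counts are descriptions, apart from those after BPA. The comparisons share arrays with one another, except that the E2 responses after DMSO and after BPA have none in common, nor do the BPA effects without and with E2. Their spread comes from the same fit on all arrays.

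**Figure D3:**
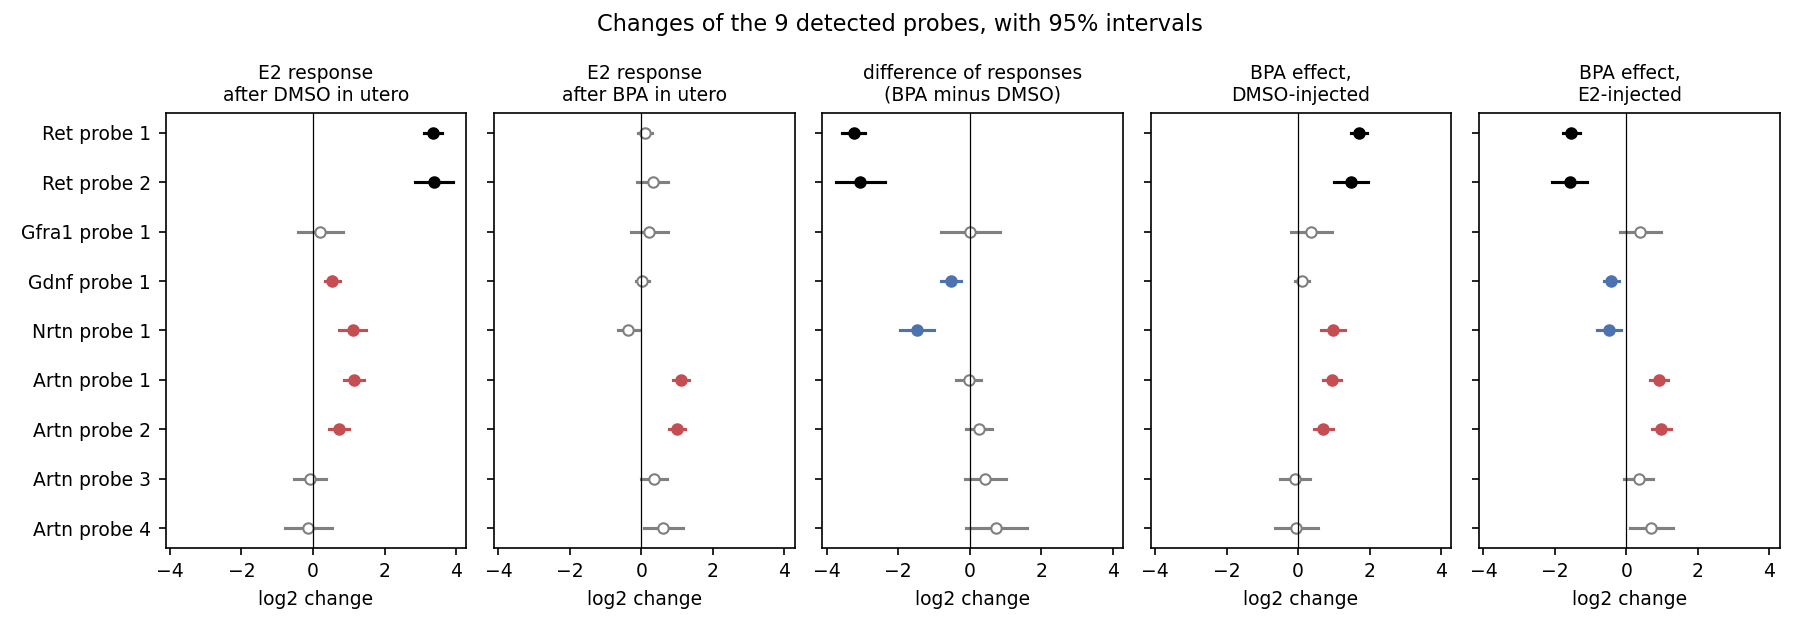
Log2 change of the 9 measured member probes in each comparison, with 95% intervals as horizontal lines; red and blue filled points passed the limma test as higher or lower, open grey points did not, and black points are the Ret values given without a test because Ret was chosen on those arrays. Ret, Gdnf and Nrtn lie to the left in the difference of responses, while Artn probes 1 and 2 lie near 0 there.

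Promoters of the 3 ligands are shown, and that of Ret is not analysed here. These ligands moved with E2 after DMSO, and the estrogen receptor binds DNA at estrogen response elements, a palindrome with the motif GGTCA in each arm. The sequences are the 250 bases before the RefSeq start site on GRCm38.p6, in the direction of the gene, with GGTCA, or its reverse complement TGACC, in capitals where present.
Artn, chr4:117929764-117930013, minus strand: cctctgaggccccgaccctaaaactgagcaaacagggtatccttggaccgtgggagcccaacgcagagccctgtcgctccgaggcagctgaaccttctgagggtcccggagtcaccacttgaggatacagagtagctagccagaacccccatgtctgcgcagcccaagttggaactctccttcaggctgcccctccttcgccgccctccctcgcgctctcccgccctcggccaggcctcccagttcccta
Gdnf, chr15:7809798-7810047, plus strand: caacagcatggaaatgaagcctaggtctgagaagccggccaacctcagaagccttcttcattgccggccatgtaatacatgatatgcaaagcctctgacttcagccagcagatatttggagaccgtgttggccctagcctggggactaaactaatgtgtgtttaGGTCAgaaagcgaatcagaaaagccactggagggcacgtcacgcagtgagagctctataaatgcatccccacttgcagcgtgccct
Nrtn, chr17:56757549-56757798, minus strand: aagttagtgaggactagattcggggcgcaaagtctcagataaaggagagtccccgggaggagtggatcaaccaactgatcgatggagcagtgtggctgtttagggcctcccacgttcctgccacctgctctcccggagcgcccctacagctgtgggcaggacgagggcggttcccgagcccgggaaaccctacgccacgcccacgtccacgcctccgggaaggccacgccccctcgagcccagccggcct
The full palindrome was found in none of these windows, and it occurs in 0.0639% of 32851 promoter windows of this length. The single motif, searched on both strands, was present in the Gdnf window shown, 86 bases before the start on the plus strand, in that of Gfra1, 78 bases before the start, and in neither the Artn nor the Nrtn window, against 35.2% of all windows. Of the 2 start sites that RefSeq gives for Gdnf, the window of the other, chr15:7813477-7813726, does not hold it. A match describes letters only, and a window without one says nothing of the receptor.

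Genes that act with the family were counted over 6 lists of 85 genes, 62 of which were measured. With E2 after DMSO, 8 were higher and 13 lower, beside 10.1% and 11.0% of all 12403 named genes measured, 1 probe each. After BPA, 7 were higher and 13 lower, beside 13.9% and 14.2%. In the difference of responses 7 were higher and 3 lower, beside 6.79% and 7.41%. For BPA without E2 the counts were 5 higher and 13 lower, beside 14.7% and 15.2%, and for BPA with E2 they were 6 and 15, beside 13.9% and 16.2%. As shares of the 62, the lower genes made up 21.0%, 21.0%, 4.84%, 21.0% and 24.2%, and the higher genes 12.9%, 11.3%, 11.3%, 8.06% and 9.68%, in that order of comparisons. The counts include Ptprj and Pcsk5, detected only in DMSO-exposed offspring, and Akt1 and Gata3, detected only in BPA-exposed offspring. These passed the filter only through the exposure where they were higher, and nothing is read from their calls.

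Of 3 other receptors and ligands of the family that were measured, 2 were lower with E2 after DMSO, beside 11.0% of all measured genes. Ncam1, a cell adhesion molecule that serves as an alternative GDNF receptor, fell with E2 after DMSO by 0.64 ± 0.10 (limma adjusted p = 0.00269), and Sdc3, a heparan sulfate proteoglycan that binds GDNF, fell by 0.54 ± 0.11 (adjusted p = 0.00875). After BPA neither passed, at -0.15 ± 0.08 and -0.26 ± 0.09. Only for Ncam1 did the difference between responses pass, at 0.49 ± 0.13 (adjusted p = 0.0384). Gfra4, the co-receptor for persephin, passed in no comparison.

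Of 22 measured RET adaptors and proximal effectors, 3 were higher and 4 lower with E2 after DMSO, with a list median of -0.02, and 4 were higher and 3 lower after BPA, with a median of 0.03. Over all measured genes the medians were 0.02 and 0.02. Called higher and lower were 10.1% and 11.0% of all measured genes after DMSO, and 13.9% and 14.2% after BPA. Grb7, an adaptor that docks on RET, fell after both exposures, by 0.83 ± 0.09 (limma adjusted p = 0.000527) and 1.23 ± 0.07 (adjusted p = 8.14e-06). Ptprj, a receptor phosphatase, is counted among the lower genes but was detected only on the 2 vehicle arrays, through which it passed the filter. Its group means were 5.77, 4.78, 4.75 and 4.55 in the order vehicle, E2, BPA and BPA plus E2, and no test is attached to them. Gab1, a docking protein of the PI3 kinase branch, fell by 0.61 ± 0.09 after DMSO (adjusted p = 0.00203) and gave 0.02 ± 0.07 after BPA. Shank3, a scaffold that binds one RET isoform, rose by 0.72 ± 0.12 and 0.47 ± 0.10 (adjusted p = 0.00378 and 0.00733).

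Gab1 was also lower in the BPA group than in the vehicle group without E2, by 0.67 ± 0.08 (limma adjusted p = 0.00043). In the MAPK and AKT core, with 5 genes measured, Map2k2, which encodes the kinase MEK2, rose with E2 by 0.49 ± 0.09 after DMSO and 0.29 ± 0.08 after BPA (adjusted p = 0.00778 and 0.0234). Mapk8, which encodes the kinase JNK1, was higher in BPA plus E2 than in E2 by 0.51 ± 0.15 (adjusted p = 0.0370), and Nras passed in no comparison. Akt1 was detected on 0 vehicle, 0 E2, 1 BPA and 2 BPA plus E2 arrays, with group means of 4.71, 4.43, 4.85 and 5.12, and no test is attached to these.

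Genes known as RET targets or feedback inhibitors in the mouse ureteric bud did not move in one direction. Of 15 measured, 2 were higher and 3 lower with E2 after DMSO (median -0.17), beside 10.1% and 11.0% of all measured genes. After BPA, 2 were higher and 5 lower (median -0.09), beside 13.9% and 14.2%. Dusp4, a phosphatase that turns off ERK, fell by 1.14 ± 0.13 after DMSO (limma adjusted p = 0.000703) and by 0.41 ± 0.11 after BPA (adjusted p = 0.0229). Kcnn4, a calcium-activated potassium channel, changed by -0.04 ± 0.16 after DMSO and fell by 1.37 ± 0.13 after BPA (adjusted p = 0.000115), a difference of -1.33 ± 0.20 (adjusted p = 0.0035). Mmp14, a membrane matrix metalloproteinase, fell by 0.55 ± 0.09 after DMSO (adjusted p = 0.00448), and Dusp6, another ERK phosphatase, fell by 0.59 ± 0.08 after BPA (adjusted p = 0.000694).

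Picked after the values were seen, Spry4, a feedback inhibitor of receptor tyrosine kinases, rose after both exposures, by 1.22 ± 0.20 and 0.72 ± 0.16 (limma adjusted p = 0.00355 and 0.0116). Cxcr4, a chemokine receptor picked in the same way, gave -0.70 ± 0.23 after DMSO (adjusted p = 0.0734) and rose by 1.06 ± 0.19 after BPA (adjusted p = 0.00403). Among regulators that control Ret or Gdnf in other organs, 11 were measured, with 1 higher and 2 lower after DMSO and 0 higher and 4 lower after BPA. Of all measured genes, 10.1% were called higher and 11.0% lower after DMSO, and 13.9% and 14.2% after BPA. Tfap2c, an AP-2 transcription factor, fell by 0.96 ± 0.12 after DMSO (adjusted p = 0.000903) and was lower in BPA than in vehicle by 1.23 ± 0.11 (adjusted p = 7.71e-05). Sox9 gave 0.11 ± 0.10 after DMSO and fell by 0.63 ± 0.08 after BPA (adjusted p = 0.00063).

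Hoxb5, which drives Ret in the enteric nervous system, fell by 0.32 ± 0.09 and 0.32 ± 0.07 after DMSO and BPA (limma adjusted p = 0.0371 and 0.0122), and Pax8, a kidney regulator, fell by 0.49 ± 0.11 after BPA (adjusted p = 0.0118). Among 6 proprotein convertases and sorting receptors that process or carry GDNF, Pcsk6 rose by 0.60 ± 0.09 after DMSO (adjusted p = 0.00285) and gave 0.15 ± 0.08 after BPA, a difference of -0.45 ± 0.12 (adjusted p = 0.0433). Sort1 fell by 0.46 ± 0.11 and 0.43 ± 0.09 (adjusted p = 0.0192 and 0.00757), Sorl1 fell by 0.47 ± 0.11 after DMSO (adjusted p = 0.0188), and Furin passed in neither E2 response.

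**Figure D4:**
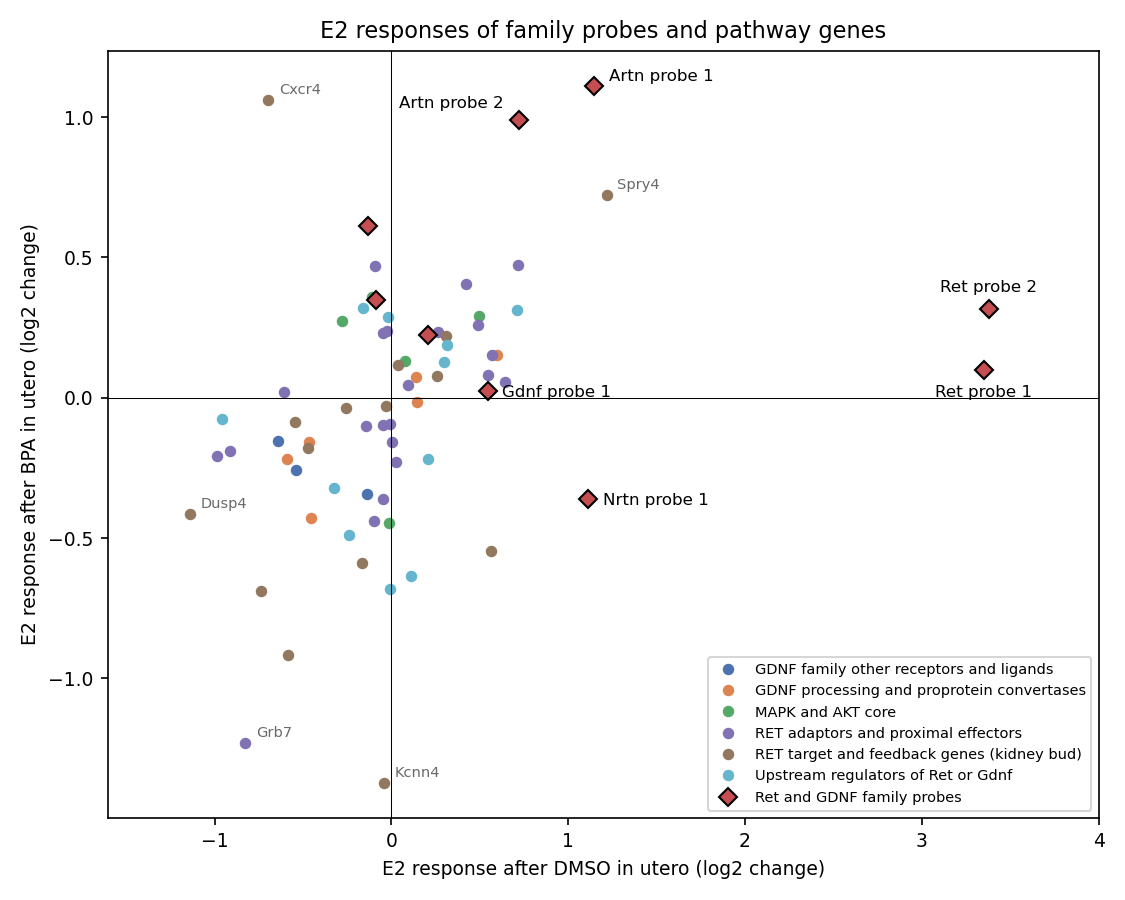
E2 response after DMSO in utero (horizontal, log2 change) against that after BPA in utero (vertical) for the 9 member probes (diamonds) and 62 genes of the 6 pathway lists (dots coloured by list). The Ret probes stand alone at the right at 3.35 and 3.38 with vertical values of 0.10 and 0.32, the Artn probes 1 and 2 lie upper right, and the list genes marked by name were singled out with their values known.

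The genes whose level over the 10 arrays was most like Ret probe 1, among 1779 with group means at least 1 log2 unit apart, were Snai2 (Pearson r = 0.979), Wdr92 (0.972), Atg3 (0.961), Col8a2 (0.954), Il20rb (0.954), Stat5a (0.943), Arsj (0.938) and Nf1 (0.927). Wdr92 was likewise lowest in vehicle and highest in E2, with group means of 7.27, 10.23, 9.00 and 8.53 in the order vehicle, E2, BPA and BPA plus E2, and an E2 response of 2.96 after DMSO and -0.48 after BPA. Most like Artn probe 1 were Tnfrsf12a (0.989), Pprc1 (0.989), Socs3 (0.987) and Ndufaf4 (0.987), and each had its highest group mean in BPA plus E2. Bmp8a (0.948) was most like Nrtn, Kcne1 (0.934) most like Gdnf, and Bop1 (0.806) most like Gfra1. These are descriptions over arrays that share groups, slides and litters.

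Among estrogen-responsive genes fixed for reference, Pgr, the progesterone receptor, rose with E2 by 1.17 ± 0.12 after DMSO (limma adjusted p = 0.000446) and gave 0.18 ± 0.10 after BPA (adjusted p = 0.228). Greb1, a coactivator induced by estrogen, rose by 1.02 ± 0.09 after DMSO (adjusted p = 0.000203) and fell by 0.69 ± 0.07 after BPA (adjusted p = 0.000267). Both were higher in BPA than in vehicle without E2, by 1.01 ± 0.11 and 0.89 ± 0.08 (adjusted p = 0.000311 and 0.000112). Ltf, the secreted iron-binding protein lactoferrin, did not follow them. It gave -0.05 ± 0.08 with E2 after DMSO (adjusted p = 0.725), fell by 3.16 ± 0.07 after BPA (adjusted p = 4.54e-08), and was lower in BPA than in vehicle by 1.60 ± 0.08 (adjusted p = 3.6e-06). Its group means in vehicle and E2, 15.40 and 15.35, lay near the top of the normalized scale, where Acta2 read 15.44 in vehicle. A change may not show at that level, so the value after DMSO is not read as a lack of response. Esr1, the main uterine estrogen receptor, passed in no comparison. These values are of 1 probe per gene, that of highest mean. Counted by any probe, 1 reference gene was lower with E2 after DMSO and 1 was higher in the BPA effect with E2, against 0 and 0 by that probe.

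Markers of the cells a uterus sample can hold were summed as normalized linear intensity beside these levels. Of 16 nerve and glia markers only 5 were measured, and Tubb3, Prph, Snap25, Elavl4, Nefl, Nefm, Th and S100b were not detected. The 5 measured summed to 214 to 218 in vehicle, 175 to 189 in E2, 211 to 252 in BPA and 236 to 251 in BPA plus E2. None of the 5 passed the test in the E2 response after DMSO, and 1, Stmn2, was higher with E2 after BPA. Sox10, Dbh and Uchl1 lay near background. Epithelial markers, with 9 of 10 measured, summed to 24299 to 24439, 17460 to 17918, 20665 to 23398 and 9404 to 10064 in that order, and 6 fell with E2 after DMSO and 8 after BPA, beside 11.0% and 14.2% of all measured genes called lower. Foxa2 alone had its highest group mean in BPA plus E2 (5.91), against 4.91 in vehicle, where it was not detected.

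Macrophage markers were highest in vehicle, at 9925 to 10124, where Ret, Nrtn and Artn probes 1 and 2 were lowest, and 5459 to 5811 in E2, 4324 to 4575 in BPA and 2446 to 2696 in BPA plus E2. Cd14 was the largest part of the sum, with group means of 12.79, 11.94, 11.55 and 10.33 in that order. Csf1r, Aif1 and Mrc1 read 7.66, 7.71 and 9.63 in BPA and 7.53, 7.55 and 9.53 in BPA plus E2. Adgre1 was lower in E2 (7.60) than in BPA (7.96). Each measured marker had its highest group mean in vehicle. Adipocyte markers were highest in BPA plus E2, at 4166 to 4404, where Artn was also highest, against 2367 to 2498 in vehicle, 1278 to 1287 in E2 and 1985 to 2066 in BPA. The adipocyte sum rested on Adipoq and Lep. Cidec had its highest group mean in vehicle (8.19, against 7.76 in BPA plus E2), Retn was near background, and Plin1 and Fabp4 were not detected. Mast cell markers summed to 1034 to 1148 in BPA plus E2 against 636 to 865 elsewhere, and the sum was carried by Kit. Cpa3, Cma1 and Mcpt4, which are more specific to these cells, had lower group means in BPA plus E2 (6.17, 5.55 and 5.67) than in E2 (6.81, 6.06 and 5.93). Tpsb2 went the other way, at 5.77 in BPA plus E2, its highest group mean, against 5.66 in E2. All 8 stroma markers were measured, with sums of 51820 to 54122 in vehicle, 49025 to 49107 in E2, 47779 to 48208 in BPA and 37636 to 39247 in BPA plus E2. All 8 smooth muscle markers were measured too, with sums of 130427 to 132181, 114014 to 121889, 118453 to 126411 and 100772 to 106197 in that order, so both sums were lowest in BPA plus E2. Not every stroma marker followed its sum. Hand2 had its highest group mean in BPA plus E2 (6.57), and Thy1 read 11.74 there against its lowest, 11.04, in vehicle. Endothelial markers summed to 3418 to 3519, 3574 to 3806, 2974 to 3151 and 3825 to 4000. Emcn, Pecam1 and Cdh5 had their highest group means in BPA plus E2. Vwf had its lowest there (8.06), Tek was highest in vehicle (8.86), and Kdr was near background. The part of these cell types in the members' levels was not tested.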

How the data were processed

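Per the labels, uterine RNA pooled by litter was extracted in TRIzol, cleaned on RNeasy Plus columns and made into biotin-labelled cRNA. The deposited non-normalized table holds the mean bead signal per probe and array as linear intensity with a detection p-value, per the file headers. Scanner, software and background subtraction are not given in the sources used here. The authors' processed table also holds linear intensity, by an unstated method, and served as an alternative.

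Intensities were corrected and quantile-normalized with neqc (limma 3.58.1, R 4.3.3, offset 16, background from detection p-values) and taken to log2. Probes detected at p under 0.05 on at least 2 arrays were kept, 23942 of 45281. Symbols came from the platform annotation, with 34885 probes of 1 symbol, 18 of several and the rest without. The 4 group means were fitted together on the 10 arrays with limma, moderated tests were two-sided, and p-values were adjusted by Benjamini-Hochberg over every kept probe, with calls at 0.05 in each of 5 comparisons. Pathway, marker and reference genes used 1 probe each, that of highest mean.

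The members and lists were chosen with earlier results of these data known. Every member was named, with up to 4 genes of smallest p per pathway list, the 8 genes most like Ret, 4 per other member, and 4 estrogen genes of reference. Promoters are RefSeq entries. The text names a subset of the genes most alike.

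Litter numbers in the labels pair arrays of one exposure. Deviations of littermate arrays from group means correlated at -0.0303 to 0.0196, so no likeness within litters was seen. As an alternative, litter entered as a fixed term where E2 and DMSO uteri were compared and as a random term (statmod 1.5.0, correlation 0.00952) where exposures were compared. Fits were also repeated with cyclic loess, uncorrected background, the authors' table, all probes, probes detected on at least 5 arrays, 1 probe per gene, array weights, a robust variance trend, only the groups compared, and each array omitted. Pooling and 2 or 3 arrays per group limit the precision. The fit was tested on simulated data. Figures used matplotlib 3.10.9.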

Additional observations from a re-analysis of the deposited data

Results flagged for a closer look

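By the limma test of the difference itself, the E2 response of Nrtn and of Gdnf differed between in utero exposures, each lower after BPA. Exposure and slide cannot be told apart in this difference. For Nrtn the difference, as the response after BPA minus that after DMSO on the log2 scale, was -1.47 (adjusted p = 0.00251), and Nrtn was higher with E2 in 2 of 2 DMSO-exposed litters and lower in 3 of 3 BPA-exposed litters. For Gdnf it was -0.519 (adjusted p = 0.0273), with E2 higher in 2 of 2 DMSO-exposed litters and in 2 of 3 BPA-exposed litters. For Ret the same difference was -3.25 for probe 1 and -3.06 for probe 2. Ret was chosen on the arrays of DMSO-exposed offspring that enter this difference, so its 2 values are descriptions with no test.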

How the results depend on the processing

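Over 45 results of member probes and 861 alternative values, 834 kept their side of the threshold, 20 lost the call and 7 gained it. These counts, and the member counts below, include Ret in the comparisons where its values are descriptions with no test. Nothing is read from Ret keeping its side there. Of the 834, 22 changed sign, 0 of them called in either fit, and 0 called values reversed. With 1 probe per gene, the member count fell in each comparison, since 1 member probe per gene was tested. It went from 6 to 4 in the E2 response after DMSO, from 2 to 1 after BPA and from 4 to 3 in the difference. In the BPA effect it went from 5 to 3 without E2 and from 6 to 4 with E2. Leaving out each array gave member counts of 6 in the E2 response after DMSO, 2 to 3 after BPA, 3 to 4 in the difference, 5 in the BPA effect without E2 and 4 to 6 with E2. In the paired fit, with litter as a replicate block, Gdnf lost its difference of responses (adjusted p = 0.0788) and no other member call changed; calls over all probes in that comparison went from 2908 to 1879. With the compared groups alone, calls over all probes in the E2 response after DMSO went from 4326 to 1368, Gdnf and Artn probe 2 lost theirs (adjusted p = 0.0683 and 0.0671), and Nrtn lost the BPA effect with E2 (0.0853), as it did without the filter (0.0598) and with a variance trend (0.0528). The 7 gained calls were all of Artn probe 4, which passed the filter only through the BPA plus E2 group, and nothing is read from them. Calls over all probes went from 6438 to 4170 in the BPA effect without E2 when vehicle replicate 1 was left out, from 6349 to 4094 or 4129 with E2 when E2 replicate 1 or 2 was, and from 4326 to between 2582 and 2820 in the E2 response after DMSO when any array of DMSO-exposed offspring was. The causes of the lost and gained calls were not tested. Counting a gene by any of its probes, adaptors called in the BPA effect with E2 went from 3 to 8 and convertases in the difference from 1 to 2. By Spearman's rho, 4 of the 8 genes most like Ret were shared. Signal near background limits Gfra1, Artn probes 3 and 4 and Nrtn most. It also limits Ret probe 2 in the vehicle group, where the raw signal was 143 and 139.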
